A study of Mus musculus with 8 samples.

Results

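The genes described here are 40 genes of the actomyosin cytoskeleton and targets of serum response factor (SRF) and its cofactor MAL, listed by name. They were matched to probe sets that carry a single gene symbol, and where a gene had several the probe set with the highest mean over the 8 arrays was used. Of the 40, 36 were measured, among 17097 genes in all. Myl12b, Tagln, Tagln2 and Actn4 had no such probe set here and were not analysed.

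The cells came from the epidermis of mouse back skin. Each array stands for a different mouse of the outbred CD1 stock. The groups were 3 mice whose skin had been stretched by force and was taken at day 4 (expanded), 2 mice treated with TPA (12-O-tetradecanoylphorbol-13-acetate), which switches on protein kinase C, and 3 untreated mice (control). The labels used here give no genotype or age of the mice and no dose or time for TPA. All cells were sorted for the integrin ITGA6 and against CD34, a gate that takes in interfollicular and infundibulum cells, so each value is an average over a sorted population, in which fewer cells of a type and less RNA per cell cannot be told apart. All values are log2 RMA signals, group values are means ± SD over the arrays, and differences are log2 differences ± SE from limma's moderated test with Benjamini-Hochberg adjustment over all genes and a threshold of 0.05. Nothing in the files gives a detection call, so the 95th percentile of 79 odorant and pheromone receptor genes, 6.37 to 6.55 depending on the array, stands in as a background limit.

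Actin filaments carry the tension of a cell. Myosin II pulls on them, tropomyosins and caldesmon lie along them, filamin and alpha-actinin tie them together, and vinculin, talin and zyxin link them to integrins at focal adhesions. MAL, encoded by Mrtfa, is held back by unpolymerised actin; when actin polymerises, MAL enters the nucleus and joins SRF, which binds a DNA element called the CArG box in the genes of many of these same proteins. In the epidermis this machinery anchors basal cells to the basement membrane and responds to force.

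The gate's defining transcripts were bright in all groups. Krt5 and Krt14, keratins of basal cells, passed in no comparison. The summed signal of 7 basal markers lay at 15.35 to 15.36 (log2) on the expanded arrays, 15.43 to 15.48 on the TPA arrays and 15.43 to 15.49 on the control arrays. Of these 7, Itga6, the integrin of the gate itself, was lower than control in both groups (-0.47 ± 0.07 for expanded and -0.69 ± 0.08 for TPA), as was its partner Itgb4, and Krt15 was higher in both. The 3 genes of a label check, known to rise after phorbol esters or wounding, went against the TPA label. Krt16 was at 12.15 ± 0.07 in the TPA arrays and 13.04 ± 0.01 in the control arrays (-0.89 ± 0.07, adjusted p = 6.57e-05). Krt6a (-0.69 ± 0.09) and Odc1, a polyamine enzyme that TPA classically induces (-2.35 ± 0.10), were likewise lower. Of the 7 immediate early genes described below, 5 were higher in the TPA than in the control arrays. Groups are therefore named by their labels throughout. If the labels of TPA and control had been exchanged, each difference between those groups would change sign, and the expanded arrays' differences from them would be exchanged. The summed endothelial markers were highest on control replicate 1, and the summed leukocyte and melanocyte markers on control replicate 3. Without the TPA arrays, the comparison of expanded with control gave the same counts of members as with them, 24 lower and 0 higher.

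Transcripts of the contractile and adhesion machinery were lower in the expanded arrays than in the control arrays. Of the 36 measured members, 24 were lower and 0 higher, beside 5.78% and 5.69% of all genes tested. In the TPA arrays 27 were lower and 2 higher than in the control arrays, beside 10.6% and 10.2% of all genes. The median difference of the members was -0.45 for expanded against control and -0.45 for TPA against control, where that of all genes was 0.01 and -0.03. Both comparisons use the same control arrays, so they are not independent. Called and at least 2-fold lower were 6 members in expanded (1.22% of all genes), namely Pdlim7, Cald1, Acta2, Tpm1, Cnn3 and Fhl2. In TPA they were 10 (2.56% of all genes), namely the same 6 with Actn1, Tpm2, Cnn2 and Myh9 (in both groups Cnn3 by its fitted value only, since 2 of 3 expanded and both TPA arrays lay under the background limit). None was 2-fold higher in either, where 0.673% and 2.17% of all genes were. The bulk cytoplasmic actins Actb and Actg1, the cofilin Cfl1 and the calponin Cnn1 did not pass in either comparison.

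**Figure D1:**
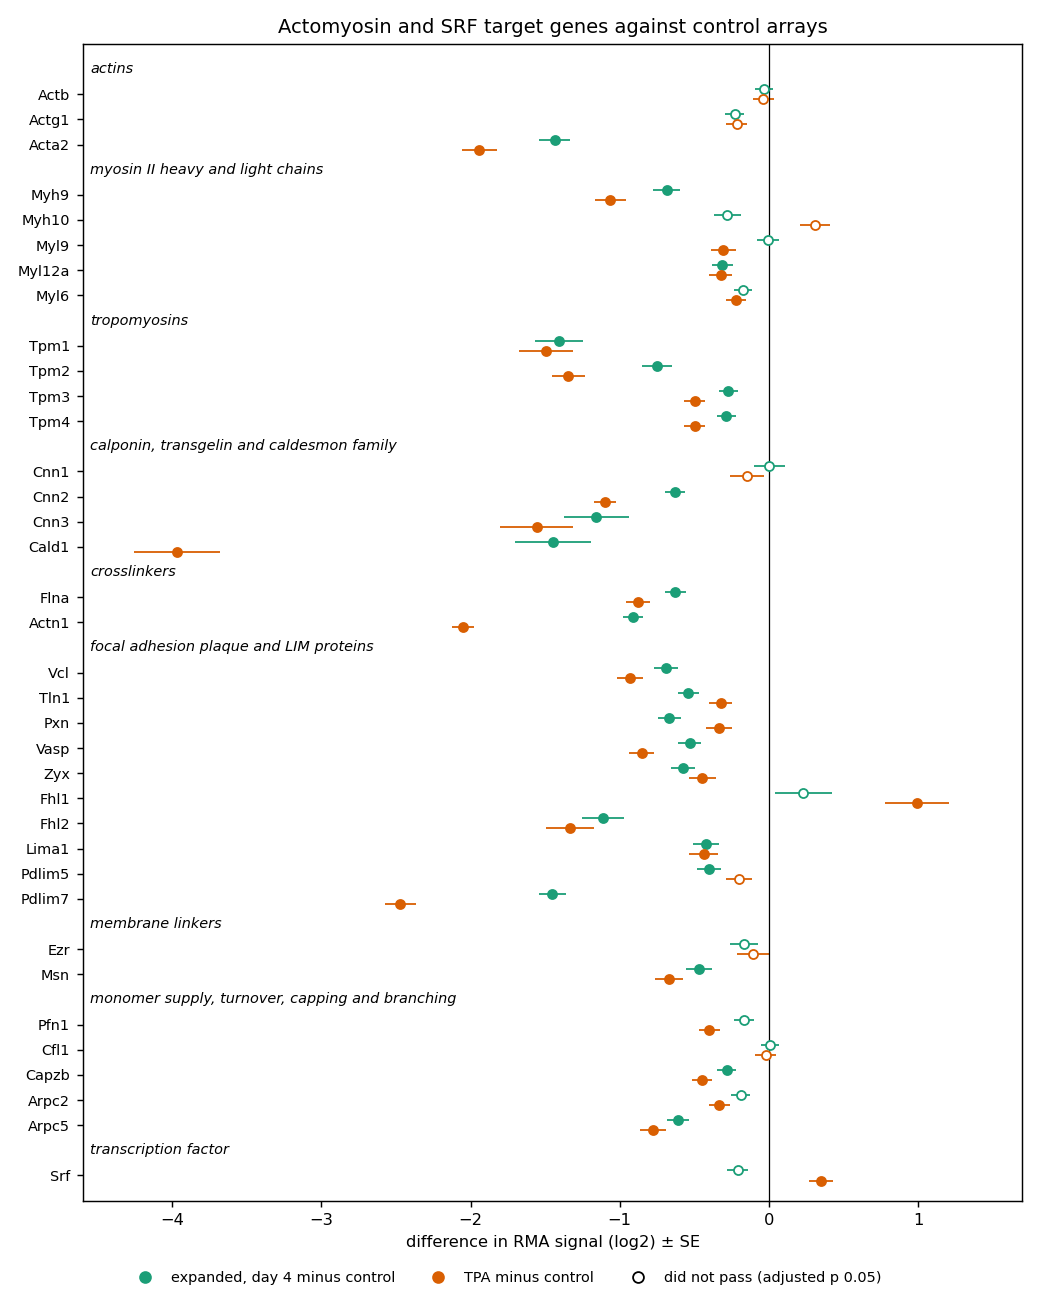
Difference in RMA signal (log2, ± SE) of each of the 36 measured members, expanded minus control (green) and TPA minus control (orange), grouped by role. Filled points passed the test. In the expanded arrays 24 members were lower and 0 higher than in the control arrays, and in the TPA arrays 27 were lower and 2, Fhl1 and Srf, higher.

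Most members have signals above the median of all genes, and genes with high signals are called more often. Among genes at or above the median signal, 9.87% were lower in the expanded and 17.6% in the TPA arrays than in the control arrays. Of the 36 members, 17 lay between a signal of 11 and 1 log2 unit below the highest signal, and of the 738 genes in that range 14.4% were lower in the expanded and 25.1% in the TPA arrays. The arrays of the groups compared did not overlap, with the lower values in the expanded arrays, for 31 members (14.5% of all genes), and with the lower values in the TPA arrays for 29 members (25.4% of all genes). They stood apart with the higher values in the expanded arrays for 0 members (15.4% of all genes) and in the TPA arrays for 3, Srf, Fhl1 and Myh10 (20.4% of all genes).

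The replicates of a group gave like values over the members. The median of the members' deviations from the control mean was -0.44, -0.44 and -0.51 on the 3 expanded arrays and -0.44 and -0.49 on the 2 TPA arrays, against 0.01, 0.01 and -0.03 on the 3 control arrays. No expanded or TPA array came near the control arrays. The lower quartile of these deviations lay between -0.82 and -0.62 on the expanded arrays and at -1.11 and -1.01 on the TPA arrays.

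The gene of SRF itself had another order of groups than most members. Srf stood at 10.67, 10.50 and 10.52 on the expanded arrays, 11.09 and 11.15 on the TPA arrays and 10.76, 10.79 and 10.76 on the control arrays. The 3 groups did not overlap, with TPA highest and expanded lowest. Srf was higher in TPA than in control (0.35 ± 0.08, adjusted p = 0.0143) and lower in expanded than in TPA (-0.56 ± 0.08, adjusted p = 0.00596), and it did not pass between expanded and control (-0.21 ± 0.07, adjusted p = 0.107). The call against control was lost without TPA replicate 2 (adjusted p = 0.0749). A second, much dimmer Srf probe set (mean signal 7.14) passed in no comparison, and with the mean of both sets neither Srf call held.

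The CArG box was searched in the promoter windows of RefSeq on GRCm38.p6, which run from 250 bases before to 50 bases after a gene's start. The motif reads the same on both strands. Of the 36 measured members, 34 had an entry (Actb and Pxn had none), and 9 of these 34 (26.5%) held the motif, beside 225 of 13605 (1.65%) measured genes with an entry. The list was drawn up as SRF targets, so this share describes the list and is not a finding about the arrays. The 9 were Srf, Vcl, Cnn2, Fhl2, Lima1, Actg1, Myl6, Myl9 and Fhl1. The windows of Srf, Vcl, Cnn2 and Fhl2 are shown whole. Srf carries 2 boxes in its own promoter. Vcl, Cnn2 and Fhl2 were lower in both groups, as was Lima1, whose window is shown in part below. The capitals mark the CArG box, and each sequence runs 5′ to 3′ on the gene's strand.
Srf (chr17:46556113-46556412, minus strand): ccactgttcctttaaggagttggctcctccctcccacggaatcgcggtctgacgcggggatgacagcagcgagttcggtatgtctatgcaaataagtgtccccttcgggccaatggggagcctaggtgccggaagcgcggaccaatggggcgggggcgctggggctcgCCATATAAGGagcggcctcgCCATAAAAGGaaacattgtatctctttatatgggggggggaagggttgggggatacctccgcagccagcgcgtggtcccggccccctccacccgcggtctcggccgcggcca
Vcl (chr14:20929148-20929447, plus strand): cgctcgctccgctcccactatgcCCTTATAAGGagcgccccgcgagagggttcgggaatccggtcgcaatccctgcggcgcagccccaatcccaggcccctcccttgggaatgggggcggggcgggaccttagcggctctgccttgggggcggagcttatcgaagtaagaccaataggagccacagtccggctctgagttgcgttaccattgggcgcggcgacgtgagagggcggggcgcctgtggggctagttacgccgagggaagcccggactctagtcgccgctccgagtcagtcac
Cnn2 (chr10:79988350-79988649, plus strand): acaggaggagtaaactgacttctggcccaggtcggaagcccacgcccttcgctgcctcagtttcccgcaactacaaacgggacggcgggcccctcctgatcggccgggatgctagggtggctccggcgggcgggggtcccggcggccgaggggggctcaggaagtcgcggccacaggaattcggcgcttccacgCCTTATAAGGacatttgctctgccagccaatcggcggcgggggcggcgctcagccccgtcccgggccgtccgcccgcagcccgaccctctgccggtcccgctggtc
Fhl2 (chr1:43163912-43164211, minus strand): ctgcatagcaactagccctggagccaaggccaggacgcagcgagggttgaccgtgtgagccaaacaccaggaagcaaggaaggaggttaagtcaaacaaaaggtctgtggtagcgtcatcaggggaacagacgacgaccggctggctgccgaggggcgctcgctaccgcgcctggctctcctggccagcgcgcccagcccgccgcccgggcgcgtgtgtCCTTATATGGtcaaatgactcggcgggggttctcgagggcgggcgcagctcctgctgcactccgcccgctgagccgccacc

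The first base of the box lay 82 and 62 bases before the start in Srf, 227 in Vcl, 56 in Cnn2 and 31 in the Fhl2 window shown. For the other genes 50 bases around the box are given, so that the boxes can be set beside each other; Fhl2 has a second start with a box of its own.
Fhl2, second start (chr1:43196828-43196877, minus strand): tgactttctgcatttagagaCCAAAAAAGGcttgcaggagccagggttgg
Lima1 (chr15:99820167-99820216, minus strand): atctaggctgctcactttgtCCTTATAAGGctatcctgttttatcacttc
Actg1 (chr11:120348556-120348605, minus strand): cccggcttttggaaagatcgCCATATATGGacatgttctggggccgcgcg
Myl6 (chr10:128493030-128493079, minus strand): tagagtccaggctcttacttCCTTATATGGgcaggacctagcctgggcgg
Myl9 (chr2:156775283-156775332, plus strand): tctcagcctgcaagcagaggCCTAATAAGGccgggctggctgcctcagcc
Fhl1 (chrX:56779561-56779610, plus strand): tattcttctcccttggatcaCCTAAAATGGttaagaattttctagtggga

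The calls of genes with a box in this window did not all have the same direction. Vcl, Cnn2, Fhl2 and Lima1 were lower than control in both the expanded and the TPA arrays, Myl6 and Myl9 were lower in the TPA arrays, Actg1 passed in neither comparison, and Srf and Fhl1 were higher in the TPA arrays. Of these calls, those of Vcl, Cnn2 and Fhl2 held in every fit that left out 1 array. Those of Lima1, Myl6, Myl9, Srf and Fhl1 did not, and that of Fhl1 rests on 1 TPA array above the background limit. Of the 10 members at least 2-fold lower in TPA, Fhl2 and Cnn2 held a box in this window and the other 8 had no match to its letters there.

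Among the cofactors of SRF, Mrtfa, the gene of MAL, was at 10.02, 9.75 and 9.98 on the expanded arrays, 9.64 and 9.94 on the TPA arrays and 10.55, 10.62 and 10.37 on the control arrays. It was lower than control in both groups, which do not overlap the control arrays (-0.60 ± 0.11, adjusted p = 0.0108 for expanded and -0.72 ± 0.13, adjusted p = 0.00409 for TPA). Its relative Mrtfb passed in no comparison, and Myocd, the cofactor of smooth and heart muscle, lay under the background limit on every array. Elk3, a ternary complex factor (TCF) that binds SRF, was lower in expanded (-0.97 ± 0.12, adjusted p = 0.00142) and in TPA (-2.12 ± 0.13, adjusted p = 1.92e-05) than in control, and higher in expanded than in TPA (1.15 ± 0.13, adjusted p = 0.00251). Elk4, another TCF, was higher in TPA than in control (0.42 ± 0.09, adjusted p = 0.0145).

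Immediate early genes that SRF controls with TCFs were counted beside all genes. Of 7 measured, 1 was higher and 0 lower in expanded than in control, where 5.69% and 5.78% of all genes were. In TPA 5 were higher and 0 lower than in control, where 10.2% and 10.6% of all genes were. For so few genes, the counts for expanded and the 0 lower in TPA lie near these shares. The zinc finger factor Egr1 (0.63 ± 0.10), the AP-1 subunit Fosb (0.63 ± 0.10) and Ier2 (1.04 ± 0.19) were among those higher in TPA, as was the nuclear receptor Nr4a1 (2.53 ± 0.21), which was also higher in expanded than in control (0.76 ± 0.19, adjusted p = 0.0359). These 4 genes were lower in expanded than in TPA, by -0.69 ± 0.10 for Egr1 and -1.77 ± 0.21 for Nr4a1.

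Other genes tied to MAL and SRF were mixed. Of 12 measured, 3 were lower and 0 higher in expanded than in control, with a median of -0.05, and 5 were lower and 3 higher in TPA than in control, with a median of 0.03. Of all genes 5.78% were lower and 5.69% higher in expanded, and 10.6% lower and 10.2% higher in TPA. The actin-bundling synaptopodin Synpo (-0.87 ± 0.19 for expanded and -2.10 ± 0.21 for TPA) and the actin-disassembly factor Wdr1 (-0.45 ± 0.06 for expanded and -0.65 ± 0.07 for TPA) were lower than control in both. So was the fibronectin receptor subunit Itga5 (-2.19 ± 0.22 for expanded), for which both TPA arrays lay under the background limit. Ccn1, a matricellular protein, was higher in TPA than in control (1.65 ± 0.16, adjusted p = 0.00015) and did not pass between expanded and control (0.12 ± 0.14).

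**Figure D2:**
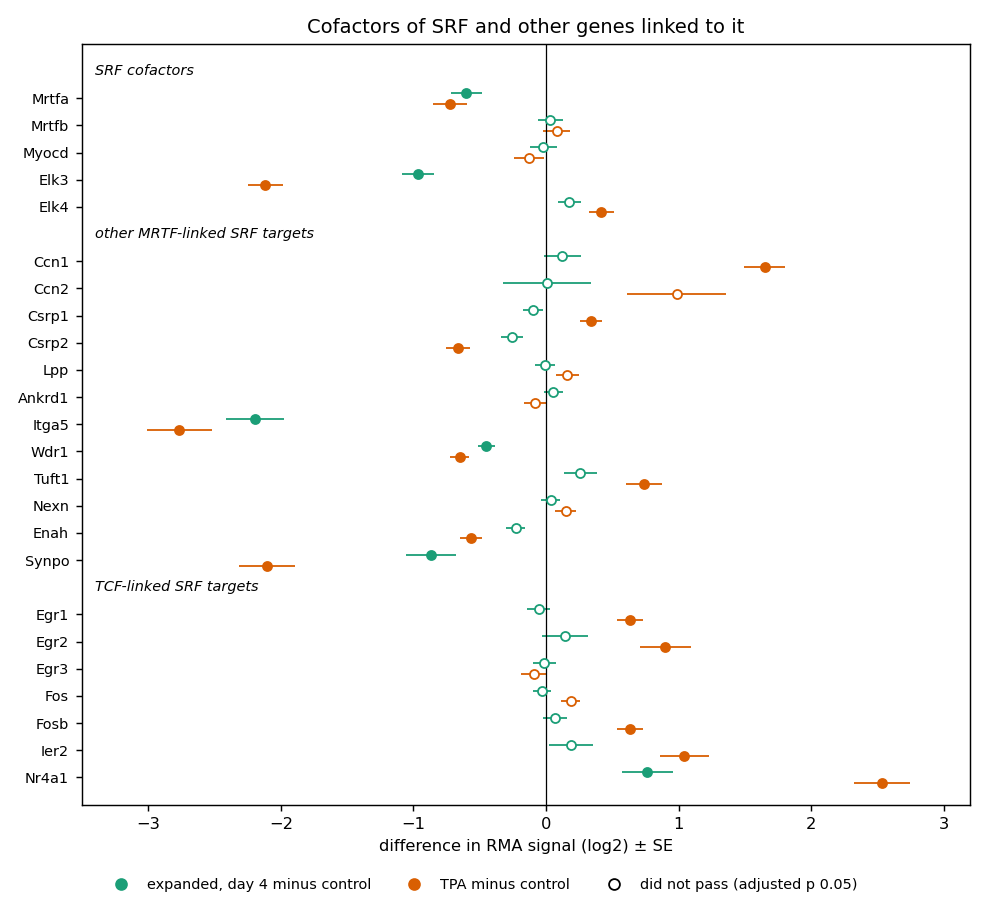
Difference in RMA signal (log2, ± SE) of the cofactors of SRF, of other genes linked to MAL and SRF, and of immediate early genes linked to SRF and TCFs, for expanded minus control (green) and TPA minus control (orange). Filled points passed the test. Mrtfa and Elk3 were lower in both, while 5 of the 7 immediate early genes were higher in TPA than in control.

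Among the actins, the transcript labelled Acta2, smooth muscle alpha-actin and a standard SRF target, was at 7.96, 8.24 and 8.28 on the expanded arrays, 7.57 and 7.75 on the TPA arrays and 9.65, 9.66 and 9.50 on the control arrays. The groups did not overlap, and the control arrays stood more than 1 log2 unit above all others. Acta2 was lower in expanded (-1.44 ± 0.10, adjusted p = 0.000103) and in TPA (-1.94 ± 0.12, adjusted p = 1.45e-05) than in control. Expanded was above TPA (0.50 ± 0.12, adjusted p = 0.0411), but this call was lost without any 1 array other than expanded replicate 1 (adjusted p up to 0.198), and after centring each array on its median (adjusted p = 0.063). Its probe set is of the kind Affymetrix marks as shared between sequences, and a second Acta2 set lay under the background limit on every array. Sets of that kind were used for 6 members, the others being Actg1, Actn1, Cald1, Lima1 and Srf.

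Acta2 also marks smooth muscle and pericytes. Of 10 measured markers of those cells, 0 passed between expanded and control (11.5% of all genes). In TPA 2 were lower than in control (10.6% of all genes), Notch3 (-0.34 ± 0.10) and Rgs5, whose TPA arrays lay under the background limit and whose control arrays lay close to it. Of the 10, 7 lay under the limit on every expanded, 8 on every TPA and 6 on every control array. Notch3 was the brightest and weighs most in their summed signal. The defining Myh11, Des and Lmod1 lay under the background limit on every expanded and TPA array, Myh11 and Des also on every control array, and the list's summed signal was 10.25 to 10.35 (log2) on expanded, 9.97 to 9.98 on TPA and 10.18 to 10.24 on control arrays.

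The cytoplasmic actins sit near the top of the scale. Actb, beta-actin, was at 13.62, 13.62 and 13.64 on the expanded arrays, 13.60 and 13.65 on the TPA arrays and 13.68, 13.66 and 13.65 on the control arrays, and its probe set gave the highest signal of all named sets (13.68). It did not pass (-0.04 ± 0.06, adjusted p = 0.816 for expanded and -0.04 ± 0.07, adjusted p = 0.776 for TPA against control). A second Actb set, less bright, read 12.76, 12.80 and 12.80 in the expanded, 12.80 and 12.77 in the TPA and 13.01, 13.05 and 13.02 in the control arrays, without overlap. With each probe set fitted by itself, this set was lower in both groups (-0.24 ± 0.06, adjusted p = 0.0463 for expanded and -0.24 ± 0.07, adjusted p = 0.0427 for TPA). Actg1, gamma-actin, with 1 set, was at 12.53, 12.55 and 12.46 in the expanded, 12.56 and 12.49 in the TPA and 12.72, 12.77 and 12.74 in the control arrays. These did not overlap the control values either, but the differences missed the threshold (-0.23 ± 0.06, adjusted p = 0.0553 for expanded and -0.21 ± 0.07, adjusted p = 0.0677 for TPA).

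Of the measured members, 3 (Actb, the myosin light chain Myl6 and profilin Pfn1) lay within 1 log2 unit of the highest signal. Among the 60 genes of that range the median absolute difference between expanded and control was 0.087, beside 0.156 for the 738 genes just below and 0.192 for those between 9 and 11. The largest in that range was 0.34 for expanded and 0.89 for TPA against control. Without these 3 members the median of the rest was -0.53 for expanded and -0.50 for TPA against control.

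**Figure D3:**
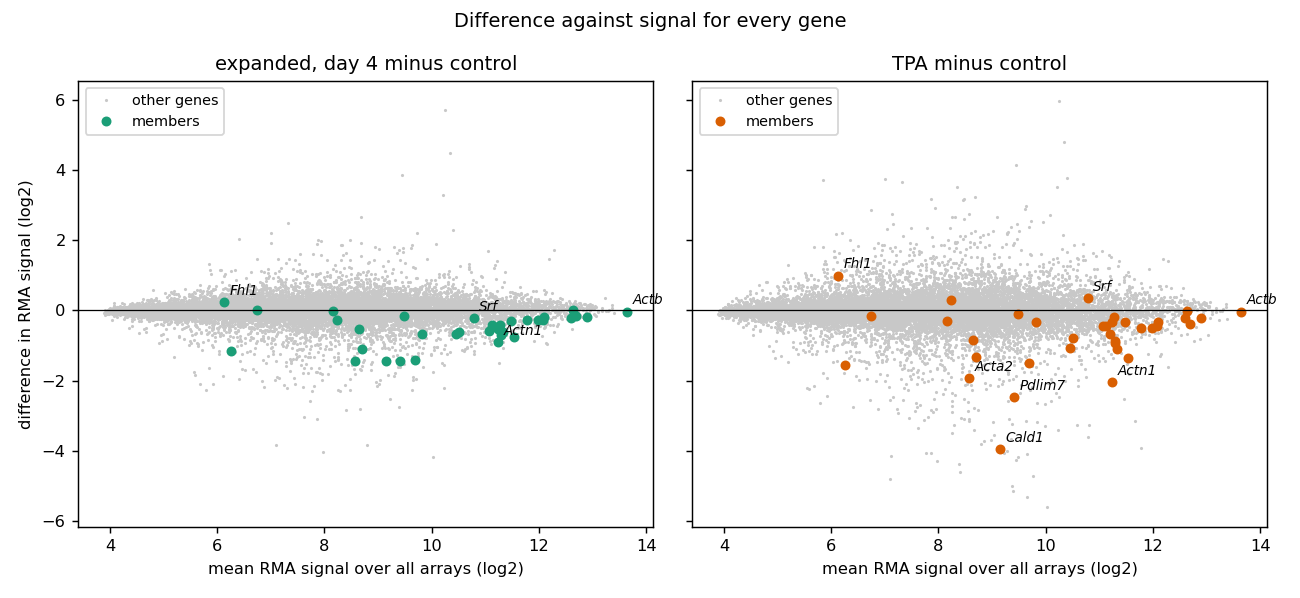
Difference in RMA signal (log2) against the mean RMA signal over the 8 arrays (log2) for all 17097 genes (grey) and the 36 members (coloured), expanded minus control on the left and TPA minus control on the right. In each panel 33 of the 36 members lie below 0, and the points close in on 0 near the highest signal, where Actb sits at 13.64.

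The non-muscle myosin II heavy chain Myh9, the main motor of the epidermal cortex, was at 10.15, 10.43 and 10.26 on the expanded arrays, 9.82 and 9.99 on the TPA arrays and 10.96, 11.06 and 10.90 on the control arrays. It was lower than control in both groups (-0.69 ± 0.09, adjusted p = 0.00216 for expanded and -1.06 ± 0.10, adjusted p = 0.000181 for TPA). Its paralogue Myh10 took another course, with 8.06, 8.02 and 7.87 in the expanded, 8.58 and 8.57 in the TPA and 8.41, 8.16 and 8.204 in the control arrays. The groups did not overlap, with TPA highest, and Myh10 was lower in expanded than in TPA (-0.59 ± 0.10, adjusted p = 0.0122), a call lost without TPA replicate 1 (adjusted p = 0.0621); neither difference from control passed.

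The myosin light chains had small differences. Myl12a, a regulatory light chain, was lower in expanded (-0.31 ± 0.07) and in TPA (-0.32 ± 0.08) than in control. The first call was lost without expanded replicate 1 or 3 or control replicate 2 or 3 (adjusted p up to 0.0822), the second without TPA replicate 2 or control replicate 2 (adjusted p up to 0.11). Myl9, the regulatory light chain best known from smooth muscle, was at 8.23 ± 0.08 in the expanded, 7.93 ± 0.06 in the TPA and 8.24 ± 0.07 in the control arrays. It was lower in TPA than in control (-0.31 ± 0.08, adjusted p = 0.0329), but not without control replicate 2 or 3, expanded replicate 3 or either TPA replicate (adjusted p up to 0.169), and did not pass for expanded (-0.01 ± 0.07). Myl6, the essential light chain, passed for TPA at the edge (-0.22 ± 0.07, adjusted p = 0.0497), a call that no fit leaving out 1 array kept. A dimmer Myl6 set rose in TPA (0.72 ± 0.13, adjusted p = 0.00505) where another fell (-0.36 ± 0.08, adjusted p = 0.0116), so the sets of this gene disagree.

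All 4 tropomyosins were lower than control in both groups, beside 5.78% (expanded) and 10.6% (TPA) of all genes. Tpm1 had the largest difference of the family for expanded and was at 8.82, 9.55 and 9.15 in the expanded, 9.16 and 9.02 in the TPA and 10.55, 10.64 and 10.55 in the control arrays. Expanded and TPA arrays overlapped, and both lay about 1 log2 unit or more below control (-1.41 ± 0.16, adjusted p = 0.000963 for expanded and -1.49 ± 0.18, adjusted p = 0.000572 for TPA). Tpm2 was at 11.31, 11.38 and 11.51 in the expanded, 10.63 and 10.98 in the TPA and 12.15, 12.12 and 12.18 in the control arrays (-0.75 ± 0.10, adjusted p = 0.00194 for expanded and -1.34 ± 0.11, adjusted p = 7.82e-05 for TPA). Expanded lay above TPA for Tpm2 (0.59 ± 0.11, adjusted p = 0.0189), a call lost without expanded replicate 2 or 3 or TPA replicate 1 (adjusted p up to 0.0922). With each probe set fitted by itself, another Tpm2 set was called likewise (0.64 ± 0.12, adjusted p = 0.0228). The remaining Tpm2 sets did not pass between expanded and TPA (0.27 ± 0.10, adjusted p = 0.191 and -0.30 ± 0.13, adjusted p = 0.283). The last also did not pass between TPA and control (-0.37 ± 0.13, adjusted p = 0.0946).

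Tpm3 and Tpm4 are the tropomyosins widespread in non-muscle cells. Their differences from control were -0.27 ± 0.06 and -0.28 ± 0.06 for expanded, and -0.50 ± 0.07 and -0.50 ± 0.07 for TPA. For expanded, Tpm3 lost its call without any 1 of the 3 control or 3 expanded arrays and Tpm4 without control replicate 1 or 2 or any expanded array (adjusted p up to 0.0889), while the TPA calls held without any 1 array. Tropomyosin genes make many splice forms, and their probe sets differed: another Tpm1 set was lower in expanded than in control (-1.03 ± 0.17, adjusted p = 0.00697) and did not pass in TPA (0.19 ± 0.19, adjusted p = 0.58). That Tpm1 set was lower in expanded than in TPA (-1.22 ± 0.19, adjusted p = 0.0112).

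Caldesmon, which binds actin and tropomyosin and restrains myosin, had the largest difference of the members in TPA. Cald1 was at 8.95, 9.56 and 9.18 on the expanded arrays, 7.24 and 6.17 on the TPA arrays and 10.53, 10.76 and 10.74 on the control arrays. No groups overlapped, and 1 of the 2 TPA arrays lay under the background limit. The differences were -1.45 ± 0.26, adjusted p = 0.00771 for expanded against control, -3.97 ± 0.29, adjusted p = 3.66e-05 for TPA against control and 2.52 ± 0.29, adjusted p = 0.00223 for expanded against TPA. The 2 other Cald1 probe sets above the limit on every array were lower in TPA than in control too (-2.11 ± 0.19, adjusted p = 0.000137 and -0.69 ± 0.15, adjusted p = 0.0112). Between expanded and TPA these 2 sets gave smaller differences (0.87 ± 0.19, adjusted p = 0.0364 and 0.27 ± 0.15, adjusted p = 0.388), and the second did not pass. The second also did not pass between expanded and control (-0.42 ± 0.13, adjusted p = 0.0835).

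Of the calponins, Cnn2 was at 11.24, 11.20 and 11.20 in the expanded, 10.75 and 10.74 in the TPA and 11.78, 11.93 and 11.82 in the control arrays, in 3 separate bands. It was lower than control in expanded (-0.63 ± 0.07, adjusted p = 0.000727) and in TPA (-1.10 ± 0.08, adjusted p = 2.91e-05), and higher in expanded than in TPA (0.47 ± 0.08, adjusted p = 0.00982). Cnn3, dim throughout, was at 5.69, 6.52 and 5.56 in the expanded, 5.56 and 5.49 in the TPA and 6.94, 7.14 and 7.15 in the control arrays. It was lower in expanded than in control (-1.16 ± 0.22, adjusted p = 0.0109), but only 1 of 3 expanded arrays lay above the background limit, and with signals raised to the limit the difference was -0.57. It was at least 1.52-fold lower in TPA than in control (adjusted p = 0.00235), counted from the limit, since both TPA arrays lay under it. Cnn1, the calponin of smooth muscle, stayed within 0.6 log2 units of the limit on all arrays and passed in no comparison.

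The crosslinkers were lower in both groups. Actn1, which bundles filaments and anchors them at adhesions, was at 11.15, 11.26 and 11.14 in the expanded, 10.07 and 10.02 in the TPA and 12.12, 12.11 and 12.05 in the control arrays. The replicates were tight and the 3 groups far apart. It had the lowest adjusted p of the members for TPA against control (-2.05 ± 0.08, adjusted p = 2e-06) and for expanded against TPA (1.14 ± 0.08, adjusted p = 0.000175), and it differed between expanded and control by -0.91 ± 0.07, adjusted p = 0.000114. Its other 2 probe sets were lower than control as well, by -0.96 and -1.08 in expanded and by -2.04 and -2.57 in TPA (log2). Flna, filamin A, a dimer that joins crossing filaments, was at 11.06, 11.14 and 11.18 in the expanded, 10.89 and 10.86 in the TPA and 11.78, 11.80 and 11.67 in the control arrays (-0.63 ± 0.07 for expanded and -0.88 ± 0.08 for TPA against control), and expanded did not pass against TPA (0.25 ± 0.08, adjusted p = 0.106).

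**Figure D4:**
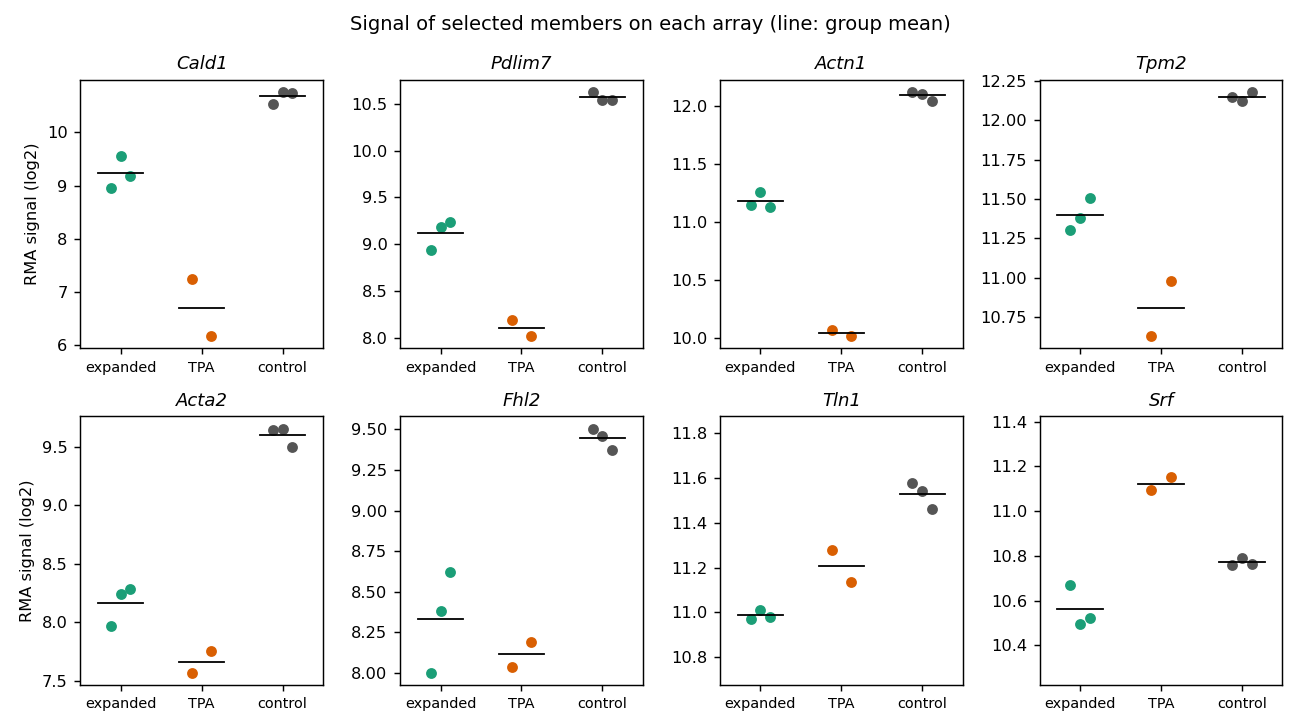
RMA signal (log2) of 8 members on each array in expanded, TPA and control mice, 1 point per mouse, with a line at each group mean and a scale of its own for each gene. The control arrays are highest in 7 of the panels, Tln1 is lowest in the expanded arrays, and Srf is highest in the TPA arrays.

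Of the 10 focal adhesion and LIM domain members, 9 were lower and 0 higher in expanded than in control, and 8 were lower and 1 higher in TPA than in control. Of all genes 5.78% and 10.6% were lower in these comparisons. Vcl, vinculin, which strengthens the link between talin and actin under load, was at 10.96, 11.19 and 11.14 in the expanded, 10.82 and 10.89 in the TPA and 11.82, 11.81 and 11.73 in the control arrays. It was lower in both (-0.69 ± 0.08, adjusted p = 0.001 for expanded and -0.93 ± 0.09, adjusted p = 0.000162 for TPA), as was Vasp, a promoter of filament growth (-0.53 ± 0.08 for expanded and -0.85 ± 0.08 for TPA). Pdlim7, a PDZ and LIM protein of actin bundles, was at 8.94, 9.18 and 9.24 in the expanded, 8.18 and 8.02 in the TPA and 10.63, 10.54 and 10.54 in the control arrays. It had the lowest adjusted p of the members for expanded against control (-1.45 ± 0.09, adjusted p = 6.31e-05), was lower in TPA than in control (-2.47 ± 0.10, adjusted p = 2.67e-06) and was higher in expanded than in TPA (1.02 ± 0.10, adjusted p = 0.00147). The second Pdlim7 set showed no such gap between expanded and TPA (-0.13 ± 0.10, adjusted p = 0.577) while lying below control in both.

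Fhl2, a LIM-only protein that binds SRF and is itself an SRF target, was at 8.003, 8.38 and 8.62 in the expanded, 8.04 and 8.19 in the TPA and 9.51, 9.46 and 9.38 in the control arrays. Expanded and TPA overlapped and both lay below every control array (-1.11 ± 0.14, adjusted p = 0.00158 for expanded and -1.33 ± 0.16, adjusted p = 0.000525 for TPA). Fhl1, its muscle-rich relative, went the other way, at 5.91, 6.41 and 5.74 in the expanded, 7.08 and 6.48 in the TPA and 5.80, 5.79 and 5.77 in the control arrays. All control arrays and all but 1 of the expanded and 1 of the TPA arrays lay under the background limit. The fitted difference between TPA and control (0.99 ± 0.21, adjusted p = 0.0111) therefore rests on 1 TPA array. With the control arrays counted from the limit, the TPA mean was 1.20-fold higher. The call was lost without TPA replicate 1 or with signals raised to the limit (adjusted p = 0.292 with signals raised).

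A set of adhesion members had its lowest values in the expanded arrays. Tln1, talin, which activates integrins, was at 10.97, 11.01 and 10.98 in the expanded, 11.28 and 11.13 in the TPA and 11.58, 11.54 and 11.46 in the control arrays. Pxn, the scaffold paxillin, was at 9.47, 9.47 and 9.51 in the expanded, 9.88 and 9.76 in the TPA and 10.28, 10.07 and 10.10 in the control arrays. In both, the 3 groups stood in separate bands, expanded lowest. Against control, expanded differed by -0.54 ± 0.07 (Tln1), -0.67 ± 0.08 (Pxn), -0.57 ± 0.08 (Zyx, zyxin, a sensor of filament strain) and -0.40 ± 0.08 (Pdlim5), all of which passed.

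The TPA differences of these genes from control were -0.32 ± 0.08, -0.33 ± 0.09, -0.45 ± 0.09 and -0.20 ± 0.09, and the last did not pass. Between expanded and TPA none of the 4 passed (adjusted p = 0.162, 0.0651, 0.534 and 0.258), so the order of the treated groups is a description for them. The TPA calls were lost without control replicate 2 or TPA replicate 2 for Tln1, without control replicate 1 or either TPA replicate for Pxn and without TPA replicate 2 for Zyx (adjusted p up to 0.143), and the expanded call of Pdlim5 was lost without control replicate 2 (adjusted p = 0.0566). Lima1, a LIM protein that stabilises filaments, was lower in expanded (-0.42 ± 0.09) and TPA (-0.44 ± 0.10), with 0.02 ± 0.10 between them; the first call was lost without control replicate 2 or expanded replicate 1 or 2 (adjusted p up to 0.0663) and the second without TPA replicate 2 (adjusted p = 0.0807).

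Of the membrane linkers, moesin (Msn) was at 11.09, 11.09 and 11.06 in the expanded, 10.74 and 11.01 in the TPA and 11.61, 11.56 and 11.47 in the control arrays and was lower in both (-0.47 ± 0.08, adjusted p = 0.00844 for expanded and -0.67 ± 0.09, adjusted p = 0.0013 for TPA). Ezrin (Ezr), its paralogue, overlapped between all groups and did not pass (-0.17 ± 0.10 for expanded and -0.11 ± 0.11 for TPA).

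Genes of monomer supply, capping and branching differed by under 1 log2 unit. Arpc5, a subunit of the Arp2/3 complex that branches filaments, was lower in expanded (-0.61 ± 0.08, adjusted p = 0.00136) and TPA (-0.78 ± 0.08, adjusted p = 0.000312) than in control, with signals of 10.21, 10.38 and 10.38 in the expanded, 10.19 and 10.12 in the TPA and 10.95, 10.97 and 10.87 in the control arrays. Capzb, which caps barbed ends, was lower in both groups (-0.28 ± 0.06 for expanded and -0.45 ± 0.07 for TPA), and its expanded call was lost without control replicate 2 or 3 or any expanded array (adjusted p up to 0.0716). Arpc2 (-0.33 ± 0.07) and Pfn1, profilin (-0.40 ± 0.07), were lower in TPA than in control and did not pass for expanded (-0.19 ± 0.06 and -0.17 ± 0.07); Arpc2 lost its TPA call without TPA replicate 1 (adjusted p = 0.0608). Cfl1, cofilin, which severs filaments, did not pass (0.01 ± 0.06 for expanded and -0.02 ± 0.07 for TPA), but its second, dimmer set was lower in TPA than in control (-0.47 ± 0.08, adjusted p = 0.00477).

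Between expanded and TPA, 8 of the 36 members passed, beside 5.98% of all genes. Of these 6 were higher in expanded, beside 3.16% of all genes, and 2 lower, beside 2.81%. Among genes at or above the median signal these shares were 5.88% and 4.46%. The 6 higher were Cald1, Actn1, Pdlim7, Tpm2, Acta2 and Cnn2, and the 2 lower were Myh10 and Srf. Cald1, Actn1 and Pdlim7 were at least 2-fold higher (0.562% of all genes) and 0 members 2-fold lower (0.55% of all genes). The arrays did not overlap, with expanded higher, for 21 members (21.8% of all genes) and with expanded lower for 6 (13.9% of all genes). The median difference of the members was 0.17 and that of all genes 0.03. In 25 of the 36 members the group means ran from control (highest) through expanded to TPA (lowest), an order found in 28.7% of all genes, and in 6 they ran from control through TPA to expanded, an order found in 10.7%.

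Other cytoskeletal genes outside the 40 were counted in the same way. Of all genes 5.78% were lower and 5.69% higher in expanded, and 10.6% lower and 10.2% higher in TPA, than in control; among the 738 genes with signals from 11 up to 1 log2 unit below the highest, 14.4% were lower in expanded and 25.1% in TPA. Of 21 other actin turnover genes, 9 were lower and 2 higher in expanded than in control, and 11 were lower and 3 higher in TPA than in control. Cotl1, a filament-binding protein, was lower in both (-0.72 ± 0.09 for expanded and -1.81 ± 0.10 for TPA), and the severing protein gelsolin, Gsn, was higher in both (0.48 ± 0.07 for expanded and 1.09 ± 0.08 for TPA). Of 15 other crosslinkers and motors, 8 were lower and 1 higher in expanded than in control, and 5 were lower and 2 higher in TPA. Fascin, Fscn1, the bundling protein of protrusions, was at 10.91, 11.14 and 11.08 in the expanded, 8.45 and 8.97 in the TPA and 12.03, 12.001 and 11.90 in the control arrays (-0.93 ± 0.13, adjusted p = 0.00253 for expanded and -3.27 ± 0.15, adjusted p = 3.62e-06 for TPA), while Svil, supervillin, was higher in TPA (1.003 ± 0.11).

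Further focal adhesion genes held both lower and higher ones. Of 22 measured, 7 were lower and 4 higher in expanded than in control, and 7 were lower and 6 higher in TPA than in control, where 10.6% of all genes were lower and 10.2% higher in TPA. Tes, testin, a partner of zyxin, was lower in expanded (-1.41 ± 0.10, adjusted p = 0.000103) and TPA (-1.97 ± 0.11, adjusted p = 1.3e-05). Tns1, tensin, which binds integrin tails, was higher, at 9.89, 9.69 and 9.73 in the expanded, 10.61 and 10.77 in the TPA and 8.72, 8.204 and 8.33 in the control arrays (1.35 ± 0.13, adjusted p = 0.000481 for expanded and 2.27 ± 0.15, adjusted p = 2.16e-05 for TPA), and the PDZ and LIM protein Pdlim4 was higher as well (1.08 ± 0.15 for expanded and 1.81 ± 0.17 for TPA), opposite to Pdlim7.

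The summed signal of suprabasal markers was higher and that of leukocyte markers lower than control in both groups, though few single markers passed. Krt1 (1.73 ± 0.33 for expanded and 1.40 ± 0.37 for TPA) and Krt10 (1.47 ± 0.23 for expanded and 1.46 ± 0.26 for TPA) were higher than in control, and 3 of the 5 suprabasal markers passed in neither comparison. Of these 3, Ivl lay the other way. It was at 8.13, 8.13 and 8.32 in the expanded, 7.82 and 8.27 in the TPA and 8.33, 8.58 and 8.67 in the control arrays. The summed signal thus follows the brighter Krt1 and Krt10 and not the whole list. The summed signal of the 5 was 13.87 to 13.99 (log2) on expanded, 13.68 to 13.81 on TPA and 11.92 to 13.08 on control arrays, with no overlap with control, and 2 of the 5 lay under the background limit on every array of each group. The 8 leukocyte markers summed to 9.15 to 9.19 on expanded, 9.06 to 9.10 on TPA and 9.49 to 10.53 on control arrays, again with no overlap; of these only H2-Ab1, of antigen-presenting cells, passed, lower in expanded (-1.93 ± 0.38) and in TPA, where both arrays lay under the background limit, and 7 passed in neither comparison. The part of these cells in the members' differences was not tested.

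Of the endothelial, fibroblast, skeletal muscle and melanocyte markers, 0 of 9, 0 of 8, 0 of 7 and 0 of 5 passed between expanded and control. Of all genes 11.5% passed. In that order 3, 4, 4 and 4 markers lay under the background limit on every expanded array. Genes with a mean signal under the limit were seldom called (0.857% higher and 1.32% lower). These short lists therefore cannot show that the groups were alike. The melanocyte sum was 8.56 to 8.75 on the expanded arrays, against 9.46 on control replicate 3 and 8.31 and 8.35 on the other control arrays. The endothelial sum was 9.91 to 10.32 on the expanded arrays, against 11.16 on control replicate 1 and 9.81 and 9.94 on the other control arrays. Without control replicate 1, 22 members were lower and 0 higher in expanded than in control. Between TPA and control 0 endothelial and 0 melanocyte markers passed, 1 fibroblast marker, the proteoglycan Dcn, was higher in TPA (1.69 ± 0.23) and 1 skeletal muscle marker, Mylpf, was lower, with both TPA arrays under the background limit. Of all genes 10.2% were higher and 10.6% lower in TPA. The TPA sums of endothelial (9.67 to 9.75) and fibroblast markers (9.68 to 10.03) did not overlap the control sums (9.81 to 11.16 and 9.26 to 9.65).

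**Figure D5:**
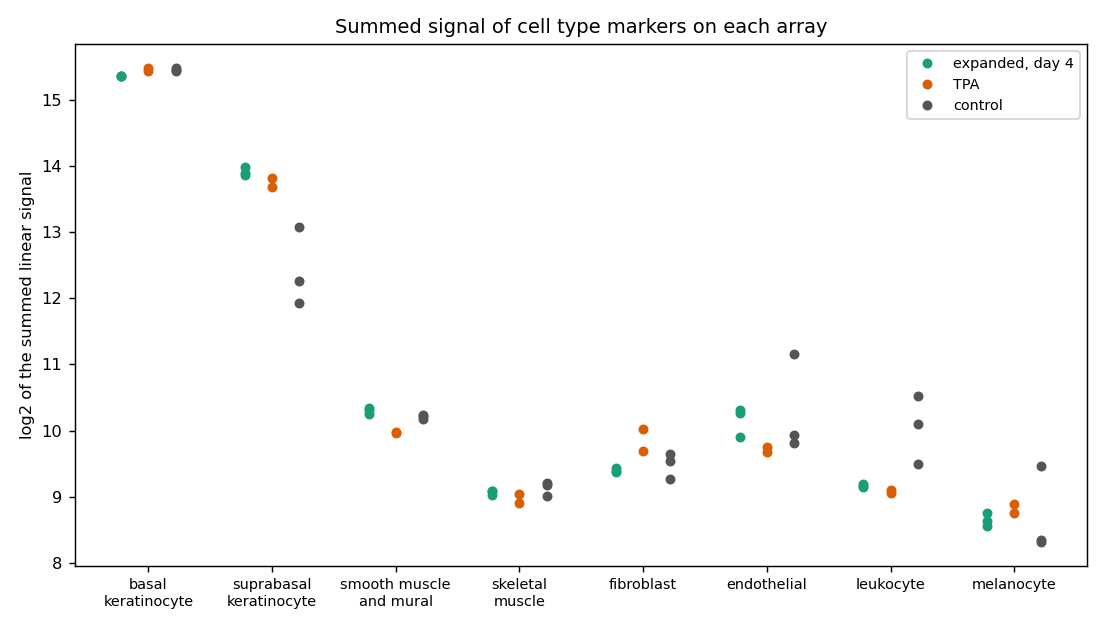
Log2 of the summed linear signal of the markers of each cell type on each array, in expanded (green), TPA (orange) and control (grey) mice. Basal markers stand above 15 on all arrays. The suprabasal sum is higher and the leukocyte sum lower on all expanded and TPA arrays than on any control array. The smooth muscle and mural sum is 9.97 to 9.98 on TPA, 10.18 to 10.24 on control and 10.25 to 10.35 on expanded arrays.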

How the data were processed

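The deposited table holds log2 signals of RMA, made by the authors from Affymetrix arrays, per the submitters' processing notes, which give no version; the genome build is not given in the sources used here. Per the labels' protocols, RNA of 300 sorted cells was amplified by PCR before hybridization, and raw scans were not used here. Of 45141 probe sets, 28898 carried 1 gene symbol in the platform's probe table, 551 several and 15692 none; symbols were updated by gene identifier, and 161 of 17097 genes could not be looked up and kept the older one. Each gene is represented by its brightest set. No column belonged to another sample. The number of arrays, not of cells, limits the precision.

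The model held a coefficient for each group, fitted on the 8 arrays together (limma 3.58.1, R 4.3.3; 5 residual and 3.54 prior degrees of freedom), and p-values were adjusted over all genes of a comparison. The fit was tested on simulated data. Replicate numbers did not pair the mice: correlations of the residuals of same-numbered arrays ran from -0.18 to 0.03. The members and lists were chosen with earlier results of these data known. Lists are described by counts, with no test of their own. One further list is not reported here. All members may be named, of other lists up to 4 genes by p in each comparison, and Krt5, Krt14, Itga6, Krt6a, Krt16 and Odc1 as a check of the labels. Myh11, Des and Lmod1, of smooth muscle, and Mrtfb and Myocd, cofactors of SRF, were named in addition, after their values were seen. The background limit and the alternative that raises signals to it were added after the data were seen. Alternatives covered normalization, filters, probe sets, the spread, the samples and the threshold.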

Additional observations from a re-analysis of the deposited data

How the results depend on the processing

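The counts of members lower than control kept within 1.5 times of 24 (expanded) and 27 (TPA) under all alternatives but the test against a fold of 1.5. That test left 3 lower in expanded and 9 lower and 0 higher in TPA against control, and 2 higher and 0 lower in expanded against TPA. Leaving out 1 array gave 18 to 24 members lower in expanded and 20 to 26 lower and 1 to 3 higher in TPA against control, with medians of -0.47 to -0.43 and -0.49 to -0.44. For expanded against TPA it gave 4 to 6 higher and 1 to 3 lower, with medians of 0.14 to 0.21. Of the members called, 18 of 24, 19 of 29 and 5 of 8 held in every such fit. The trended robust eBayes raised the calls between expanded and TPA to 13 higher and 4 lower, and averaging the probe sets of each gene left 1 lower. Quantile normalization gave a median of -0.41 for expanded against control. Without the 3 members near the highest signal the medians against control were -0.53 (expanded) and -0.50 (TPA). With the replicate number as a block, 20 members were lower in expanded and 23 lower and 1 higher in TPA against control, and 4 higher and 2 lower in expanded against TPA; the numbers do not pair the mice. With its probe sets averaged, Myl6 turned to 0.046 for TPA against control, as its sets disagree. The genes under the background limit are bounded by it, and the causes of the other changes were not tested. Over all genes, calls between expanded and control were 1960, but 1261 without control replicate 2 and 173 against a fold of 1.5; between TPA and control 3559, but 596 against that fold. Between expanded and TPA they were 1022, but 511 with only those groups in the fit, 541 with the block, 64 against that fold, and 636, 560 and 568 without expanded replicate 2, expanded replicate 3 and TPA replicate 1.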

Other observations

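The probe sets not used above add to the picture of the members. For 23 members another 39 probe sets carried the same symbol. Fitted by themselves, 27 of these were lower and 0 higher in expanded than in control, 23 were lower and 1 higher in TPA than in control, and 7 were higher and 3 lower in expanded than in TPA. The 1 set higher in TPA belongs to Myl6, the essential light chain, whose used set was lower in TPA in the fit of 1 set per gene (adjusted p = 0.0497) and missed the threshold in the fit of all sets (adjusted p = 0.0566). No other set was called opposite to the used set of its gene. All 4 other sets of Pdlim5, a PDZ and LIM protein, were lower in expanded than in control (-0.61 to -0.41), and 1 of them was lower in TPA than in control (-0.36 ± 0.09, adjusted p = 0.0205). Of the 4 other sets of Lima1, 3 were lower than control in both groups and the dimmest lay under the background limit on every array. The sets of a gene share its RNA and its arrays, so these are not separate replicates.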
